A study of Cavia porcellus with 13 samples.

Results

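This account follows the genes that type I interferon switches on in the skin of guinea pigs bitten by ticks. The set was chosen by symbol from a list of 10 (RSAD2, OAS1, ISG15, CMPK2, MX1, IFIH1, DDX58, IRF7, STAT2 and USP18). Of the 26855 genes in the deposited table, 8 belong to it, and MX1 and USP18 were not analysed here. All 8 reached 1 TPM (a transcript's length-scaled share of its library) in at least 2 libraries and so entered the tests on 14979 genes.

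Skin RNA was sequenced in 13 libraries, all dated 4 days after tick attachment. They comprised bitten skin of animals on their first exposure (n = 3), bitten skin of animals labelled saliva immune (n = 3, the route of immunization not being stated), skin after 2 bites (n = 2) and after 3 bites (n = 2), and naive skin without a bite (n = 3). The prefixes of the library titles, CK1 and EF19-5, were taken as experiments: CK1 holds first exposure, saliva immune and naive replicates 1 and 2, and EF19-5 holds 2 bites, 3 bites and naive replicate 3. The labels give no strain, age or sex. Whether each library is a separate animal is not stated either, and the spread behind the p-values may therefore be technical in part or whole. Depth is unknown, because TPM keeps no record of it. Every library carried the defining transcripts of skin, with KRT14, a basal keratin, at 4287 to 14039 TPM and COL1A1, a collagen chain, at 689 to 5316 TPM.

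Type I interferons bind the receptor IFNAR1 and IFNAR2 on nearly every cell. Through the kinases JAK1 and TYK2 this assembles the transcription factor ISGF3, which contains STAT2 and IRF9 and turns on a broad antiviral programme. Some of its products sense viral RNA, others block replication, and IRF7 feeds back to raise interferon synthesis. In skin, keratinocytes, macrophages and plasmacytoid dendritic cells can all take part. The interferon genes themselves (15 symbols listed) were not analysed here.

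Bitten skin held more RSAD2, CMPK2 and OAS1 than naive skin in every library of the same experiment. ISG15 and IRF7 lay higher on average with a slight overlap in CK1, STAT2 and IFIH1 lay higher by less, and DDX58 was not separated. Averaged over the 10 bitten and 3 naive libraries, TPM was 2.93-fold for RSAD2, 2.80-fold for OAS1, 2.54-fold for CMPK2, 2.39-fold for IRF7, 2.30-fold for ISG15, 1.58-fold for IFIH1, 1.36-fold for STAT2 and 0.978-fold for DDX58. These averages pool the experiments, between which the order of the genes differed. In CK1 the ratios, in the same gene order, were 2.16, 1.74, 3.22, 2.24, 1.69, 1.42, 1.28 and 0.987. Against the only naive library of EF19-5 they were 5.43, 5.33, 1.63, 2.56, 2.97, 1.78, 1.35 and 0.914. None of the 8 passed limma after Benjamini-Hochberg adjustment over all 14979 genes, where 0.0401% of genes passed. In bulk skin, a change in the number of cells of a type and a change in RNA per cell cannot be told apart.

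**Figure D1:**
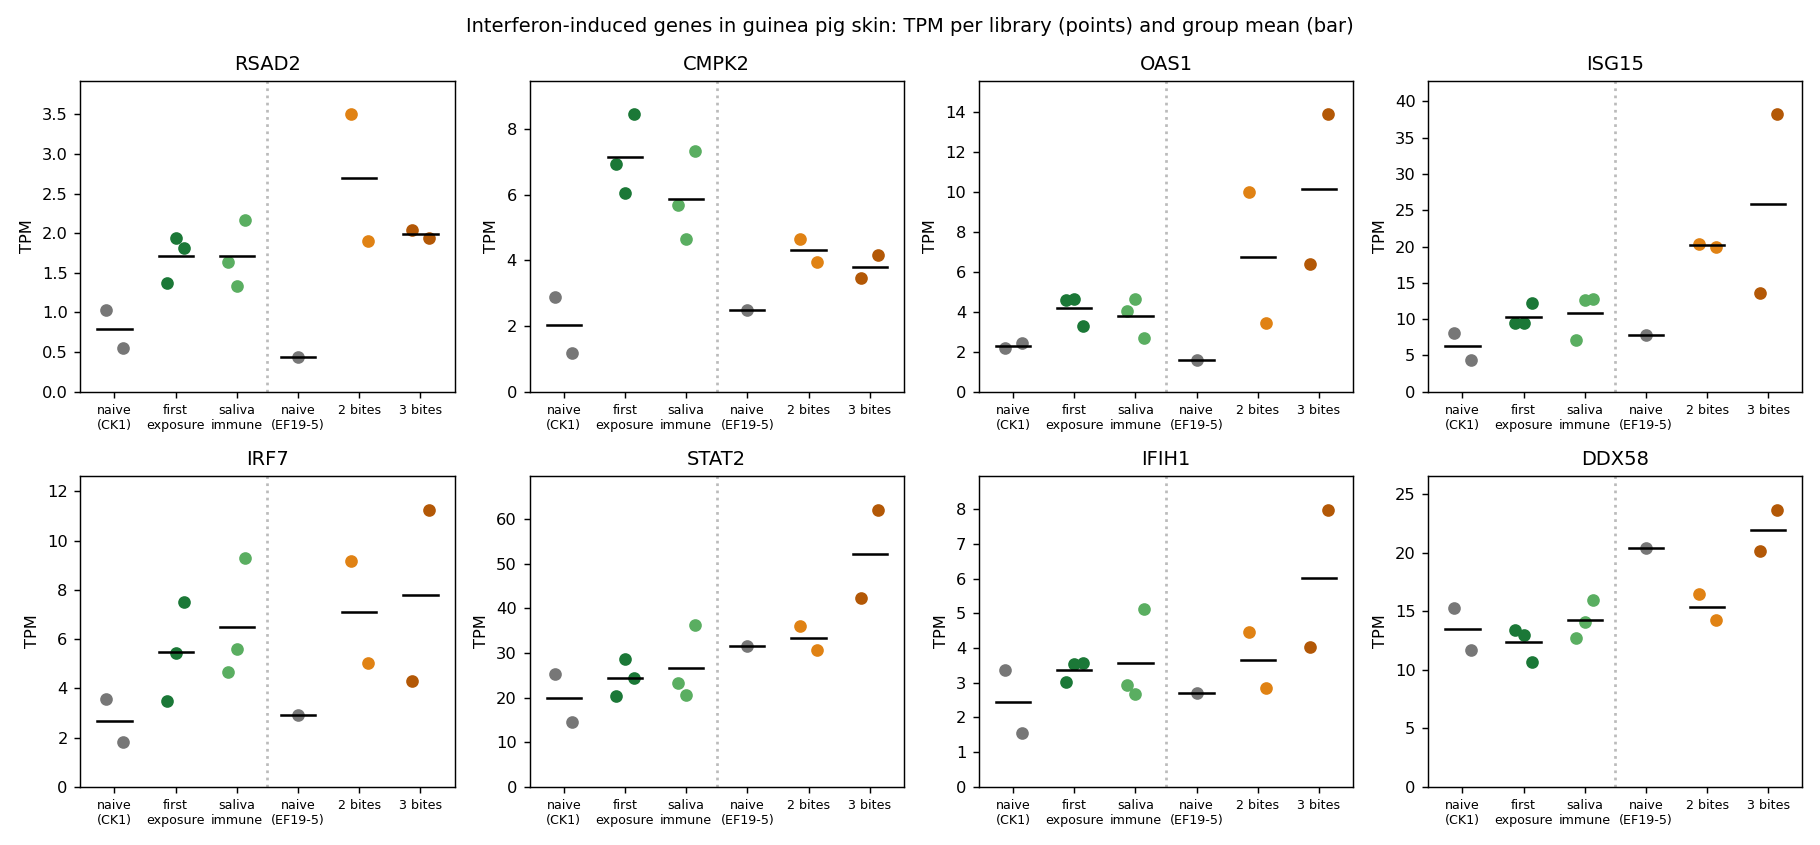
TPM (vertical axes, from 0) of the 8 genes in each of the 13 libraries, by group; points are libraries, black bars group means, and the dotted line separates CK1 from EF19-5. All bitten points of RSAD2, CMPK2 and OAS1 lie above the naive points of their experiment, and 3 bites replicate 2 is the highest point for 6 of the 8 genes.

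The enzymes come first. RSAD2 (viperin) is a radical SAM enzyme that makes a chain-terminating nucleotide and so stops viral polymerases. Its transcript stood at 1.03 and 0.549 TPM in the CK1 naive libraries and at 0.432 TPM in that of EF19-5. First exposure held 1.38, 1.94 and 1.81 TPM, saliva immune 1.63, 1.33 and 2.16, 2 bites 3.50 and 1.90, and 3 bites 2.04 and 1.94. No bitten library fell to the naive level of its own experiment, although RSAD2 remained the least abundant of the 8 genes, at 1.66 ± 0.783 TPM over all libraries (SD, n = 13). On the log2(TPM + 1) scale, which understates changes at such low levels, bitten minus naive was 0.81 (SE 0.191, adjusted p = 0.113 by limma).

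CMPK2, a mitochondrial nucleoside monophosphate kinase that supplies viperin's substrate, is the genomic neighbour of RSAD2 in mammals. It stood at 2.88 and 1.16 TPM in CK1 naive skin and at 2.48 TPM in that of EF19-5. First exposure held 6.94, 6.05 and 8.44 TPM, saliva immune 5.67, 4.63 and 7.32, 2 bites 4.65 and 3.95, and 3 bites 3.46 and 4.15. The highest CMPK2 values therefore lay in CK1, whereas the highest RSAD2 value lay in 2 bites replicate 1 of EF19-5. The log2 difference between bitten and naive skin was 1.07 (SE 0.217), with an adjusted p of 0.0903 by limma. With a pseudocount of 0.1 in place of 1 it was 1.37, below the 1.44 of RSAD2. It passed under 1 of 22 alternative fits (adjusted p = 0.0453 with array weights, and 0.0453 to 0.747 over all of them), and without naive replicate 2 the difference was 0.74 (adjusted p = 0.747).

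OAS1 senses double-stranded RNA and makes the second messenger that activates RNase L. Its naive levels were 2.17 and 2.41 TPM in CK1 and 1.58 TPM in EF19-5. First exposure held 4.57, 4.66 and 3.29 TPM, saliva immune 4.05, 4.62 and 2.70, 2 bites 10.02 and 3.45, and 3 bites 6.38 and 13.9. Within EF19-5 the replicates of a group lay far apart. The log2 difference of bitten and naive skin was 0.98 (SE 0.316, adjusted p = 0.186 by limma), and it was 0.58 once naive replicate 3 was left out, which removes all naive skin of EF19-5.

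ISG15 is a ubiquitin-like protein that is conjugated to other proteins during the interferon response and is also secreted. Naive skin held 8.13 and 4.40 TPM in CK1 and 7.75 TPM in EF19-5. First exposure held 9.40, 9.44 and 12.2 TPM and saliva immune 7.05, 12.6 and 12.8, so that saliva immune replicate 1 lay below naive replicate 1. In EF19-5 all 4 bitten libraries were above the naive library, with 20.4 and 19.9 TPM after 2 bites and 13.6 and 38.2 TPM after 3 bites. The log2 difference between bitten and naive skin was 0.93 (SE 0.273, adjusted p = 0.161 by limma).

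Among the transcription factors, IRF7, the regulator that amplifies interferon alpha synthesis, stood at 3.55 and 1.80 TPM in CK1 naive skin and at 2.90 TPM in EF19-5 naive skin. First exposure held 3.49, 5.44 and 7.51 TPM, saliva immune 4.66, 5.58 and 9.29, 2 bites 9.15 and 5.02, and 3 bites 4.31 and 11.3. Only first exposure replicate 1 lay at or below a naive library of its experiment. The log2 difference of IRF7 was 0.96 (SE 0.285, adjusted p = 0.165 by limma).

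STAT2, the ISGF3 subunit particular to type I and type III signalling, was the most abundant of the 8 genes, at 30.4 ± 12.2 TPM over all libraries (SD, n = 13). It stood at 25.3 and 14.5 TPM in CK1 naive skin, at 20.3 to 28.6 TPM in first exposure and at 20.5 to 36.2 TPM in saliva immune skin. In EF19-5 the naive library held 31.6 TPM, 2 bites 36.0 and 30.6 TPM and 3 bites 42.4 and 62.2 TPM. Bitten and naive libraries of STAT2 overlapped in both experiments, and the log2 difference was 0.37 (SE 0.221, adjusted p = 0.426 by limma). It depended on the naive libraries, being 0.57 without naive replicate 1, 0.17 without naive replicate 2 and 0.076 when 3 bites replicate 2 was left out along with the latter.

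The 2 cytosolic RNA sensors follow. IFIH1 (MDA5), which recognizes long double-stranded RNA, stood at 3.36 and 1.54 TPM in CK1 naive skin, and its bitten libraries of CK1 lay between 2.66 and 5.12 TPM. In EF19-5 the naive library held 2.70 TPM, 2 bites 4.45 and 2.84 TPM and 3 bites 4.03 and 7.995 TPM. The log2 difference of IFIH1 was 0.47 (SE 0.243, adjusted p = 0.368 by limma) and 0.29 without naive replicate 2 (0.17 when 3 bites replicate 2 was left out as well).

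DDX58 (RIG-I), which recognizes RNA with a triphosphate end, had naive levels of 15.2 and 11.7 TPM in CK1 and 20.4 TPM in EF19-5. First exposure held 13.4, 12.97 and 10.7 TPM, saliva immune 12.7, 14.1 and 16.01, 2 bites 16.5 and 14.3, and 3 bites 20.1 and 23.7. The naive values lay inside the range of the bitten ones in both experiments. The log2 difference of DDX58 was -0.06 with a 95% interval from -0.40 to 0.27 (adjusted p = 0.877 by limma), and it was -0.17 with median-of-ratios scaling and 0.01 without naive replicate 1.

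Counted together, 7 of the 8 genes lay higher in bitten skin, beside 64.6% of all tested genes. Libraries did not overlap within either experiment for 3 genes (RSAD2, CMPK2 and OAS1), all higher, beside 3.09% of all genes. At an unadjusted p under 0.05 limma placed 5 genes higher (these 3 with ISG15 and IRF7) and 0 lower, beside 11.2% and 4.58% of all genes. Their median log2 difference was 0.87, against 0.10 over all tested genes, and it lay between 0.59 and 1.09 in all 22 alternative fits. An exact two-sided permutation of the bite label within experiments, with 140 arrangements, gave RSAD2, CMPK2 and OAS1 p = 0.00714, the smallest it can give. That value was also reached, on the higher side, by 2.05% of all genes, and its adjusted p over all genes was 0.223. For genes without overlap no arrangement can give a larger positive difference, so the permutation largely restates the count of 3 above. ISG15 had a permutation p of 0.0143, IRF7 0.0214, IFIH1 0.1, STAT2 0.157 and DDX58 0.693.

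**Figure D2:**
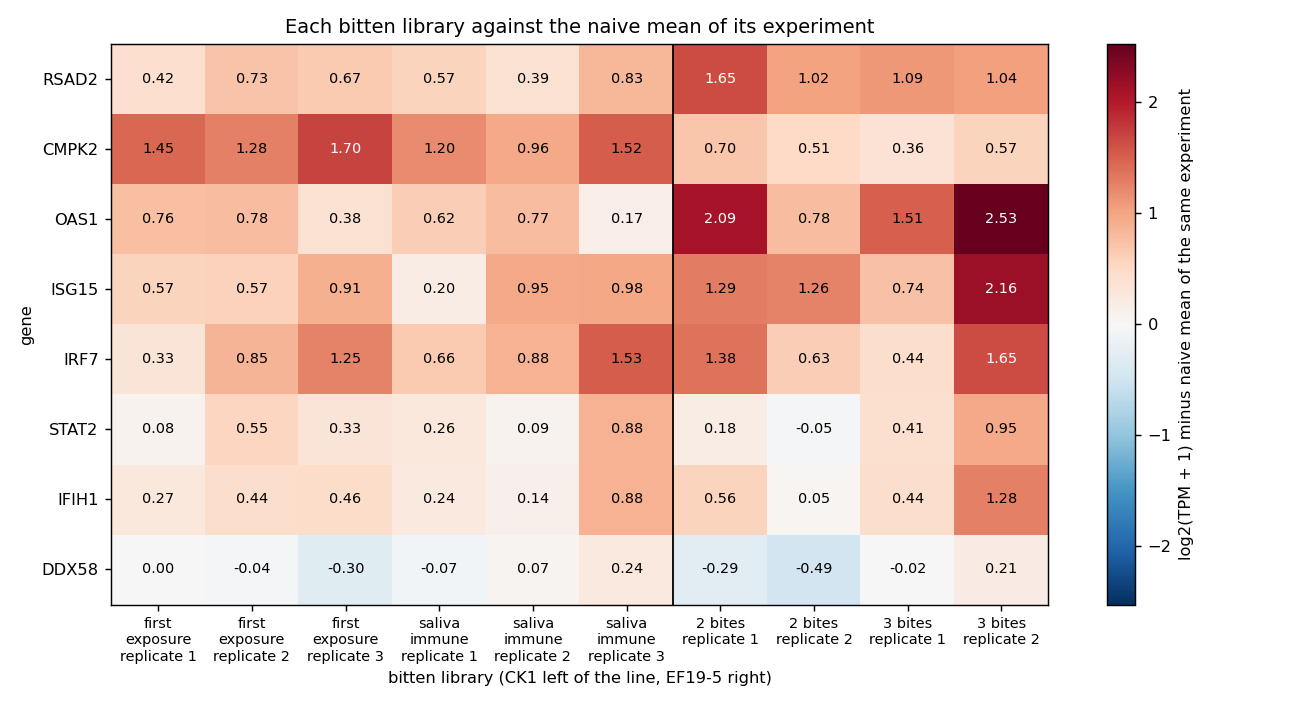
Difference of log2(TPM + 1) between each bitten library (columns) and the naive mean of its experiment (rows are genes; red is higher, blue lower, numbers are the differences). RSAD2, CMPK2, OAS1, ISG15 and IRF7 are above 0 in all 10 bitten libraries, and DDX58 runs from -0.49 to 0.24.

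The exposure histories were compared next, each against naive libraries from the same experiment. In first exposure CMPK2 stood 3.53-fold, RSAD2 2.17-fold and IRF7 2.05-fold above the CK1 naive mean, and in saliva immune skin the ratios were 2.90 for CMPK2, 2.43 for IRF7 and 2.16 for RSAD2. The enzyme OAS1 was at 1.82-fold and 1.65-fold, and ISG15 at 1.65-fold and 1.73-fold, respectively. These comparisons share the 2 CK1 naive libraries, and those of EF19-5 share its only naive library, and comparisons that share controls are not independent.

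None of the 8 genes passed limma in first exposure against naive skin (0.0334% of all genes passed) or in saliva immune against naive skin (0.00668% passed). In first exposure, 2 genes were higher at an unadjusted p under 0.05, CMPK2 (log2 difference 1.48, 95% interval 0.86 to 2.10, adjusted p = 0.146) and RSAD2 (0.61, 0.04 to 1.17, adjusted p = 0.349), beside 9.15% of all genes. In saliva immune skin these were CMPK2 (1.23, 0.61 to 1.84, adjusted p = 0.262), RSAD2 (0.60, 0.03 to 1.17, adjusted p = 0.41) and IRF7 (1.02, 0.04 to 2.01, adjusted p = 0.415), beside 9.55% of all genes. The libraries of 4 genes did not overlap in each comparison, all higher, beside 21.9% of all genes for first exposure and 18.5% for saliva immune. The median of the 8 log2 differences was 0.62 for first exposure (0.14 over all genes) and 0.56 for saliva immune (0.14), and 0.36 and 0.37 without naive replicate 2. In saliva immune skin CMPK2 then differed by 0.81 and IRF7 by 0.67. That library had the lowest value of 5 of the 8 genes, and of 31.4% of all genes tested, and skeletal muscle genes made up 18.4% of its TPM.

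In EF19-5, RSAD2 stood 6.25-fold above the naive library after 2 bites and 4.604-fold after 3 bites, OAS1 4.25-fold and 6.401-fold, and ISG15 2.60-fold and 3.34-fold. IRF7 was at 2.44-fold and 2.68-fold and CMPK2 at 1.73-fold and 1.53-fold. Each ratio rests on 1 naive library, which the test assumes to vary like the other groups. limma passed none of the 8 genes after 2 bites (0.0134% of all genes passed) or after 3 bites (0.00668%). At an unadjusted p under 0.05, RSAD2, ISG15 and OAS1 were higher in both, beside 2.70% of all genes after 2 bites and 1.65% after 3 bites. Both 2 bites libraries lay above the naive library for 6 of the 8 genes and below it for DDX58, beside 28.6% and 43.3% of all genes, and both 3 bites libraries lay above it for 7 (all but DDX58), beside 41.1%.

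After 2 bites the log2 difference was 1.33 for RSAD2 (95% interval 0.57 to 2.10, adjusted p = 0.7), 1.44 for OAS1 (0.24 to 2.64, adjusted p = 0.778) and 1.27 for ISG15 (0.06 to 2.48, adjusted p = 0.825) by limma. Without 2 bites replicate 1, the value of OAS1 was 0.78. After 3 bites it was 1.06 for RSAD2 (0.30 to 1.82), 2.02 for OAS1 (0.82 to 3.22) and 1.45 for ISG15 (0.24 to 2.66), each with an adjusted p of 1 by limma. The median of the 8 differences was 0.80 after 2 bites (-0.06 over all genes) and 0.95 after 3 bites (0.08). Without 3 bites replicate 2, which had the highest value of 6 of the 8 genes (ISG15, STAT2, IRF7, IFIH1, OAS1 and DDX58) and of 23.4% of all genes, the median after 3 bites was 0.44. ISG15 then differed by 0.74 and OAS1 by 1.51.

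**Figure D3:**
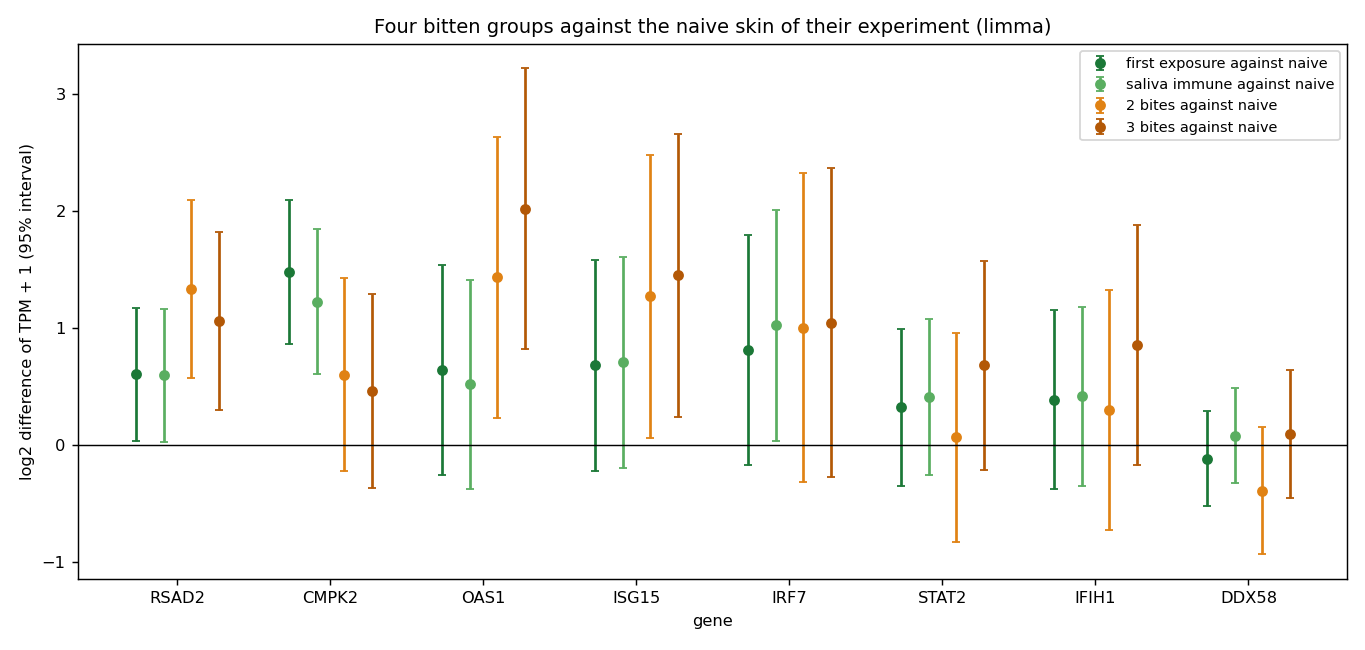
log2 difference of TPM + 1 between each bitten group and the naive skin of its experiment (points) with the 95% interval from limma (bars), for the 8 genes. Intervals of CMPK2 lie above 0 in first exposure and saliva immune skin, those of OAS1 and ISG15 after 2 and 3 bites, that of IRF7 in saliva immune skin, and those of RSAD2 in all 4 groups; the intervals are not adjusted for the number of genes.

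Direct comparisons between exposure histories showed no passing gene. Between saliva immune and first exposure skin the 8 differences ran from -0.25 for CMPK2 (95% interval -0.80 to 0.30) to 0.21 for IRF7 (-0.67 to 1.09), with a median of 0.03. RSAD2 differed by -0.01 (-0.52 to 0.50), ISG15 by 0.03 (-0.78 to 0.83) and OAS1 by -0.12 (-0.92 to 0.68). All adjusted p were 1 by limma, 0% of all genes passed, and 0 of the 8 genes had an unadjusted p under 0.05 in either direction, beside 1.80% of all genes higher and 0.547% lower. These intervals are wide, so similar means do not show equal levels.

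Between 3 bites and 2 bites skin, again with 0% of all genes passing, the median difference of the 8 genes was 0.33 (0.13 over all genes). DDX58 (0.48, 95% interval 0.04 to 0.93, adjusted p = 0.44 by limma) and STAT2 (0.62, -0.11 to 1.35, adjusted p = 0.518) were higher after 3 bites with no overlap, beside 35.6% of all genes, and of the 8 genes DDX58 alone was higher at an unadjusted p under 0.05, beside 8.12%. RSAD2 (-0.27, -0.90 to 0.35) and CMPK2 (-0.14, -0.82 to 0.53) lay lower on average. ISG15 (0.18) and IRF7 (0.05) stood at -0.53 and -0.56 without 3 bites replicate 2, and at 0.89 and 0.65 without its partner, and the median of the 8 genes at -0.08 and 0.77, so that the sign of these values rests on single libraries.

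The order of the groups differed between genes. CMPK2 was highest in first exposure (7.14 ± 1.21 TPM, SD, n = 3), then saliva immune (5.87 ± 1.35, n = 3), 2 bites (4.30 ± 0.497, n = 2) and 3 bites (3.81 ± 0.491, n = 2), with naive skin at 2.02 ± 1.22 (CK1, n = 2) and 2.48 (EF19-5). First exposure and saliva immune, and 2 bites and 3 bites, lay within each other's spread. For OAS1 the order was 3 bites (10.1 ± 5.31 TPM, n = 2), 2 bites (6.73 ± 4.64, n = 2), first exposure (4.17 ± 0.763, n = 3) and saliva immune (3.79 ± 0.986, n = 3), where neighbouring bitten groups did not differ beyond their spread. ISG15 ran in the order 3 bites (25.9 ± 17.4), 2 bites (20.2 ± 0.311), saliva immune (10.8 ± 3.27) and first exposure (10.3 ± 1.58). RSAD2 was at 2.70 ± 1.13 after 2 bites, 1.99 ± 0.0750 after 3 bites and 1.71 in both CK1 groups (SD 0.297 in first exposure and 0.421 in saliva immune).

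Because exposure history and experiment change together in that order, the difference between the bite effects of EF19-5 and CK1 was tested. It was 1.15 for OAS1 (95% interval -0.21 to 2.51), 0.67 for ISG15 (-0.70 to 2.04), 0.60 for RSAD2 (-0.27 to 1.46) and -0.82 for CMPK2 (-1.76 to 0.11). None passed limma (adjusted p = 0.999 for each of the 8 genes, 0% of all genes passed, and 0 of the 8 had an unadjusted p under 0.05, beside 0.574% of all genes higher and 2.24% lower), and experiment and the number of bites cannot be told apart.

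Beyond the 8 genes, 62 of 99 other listed symbols of the pathway's receptors, sensors, effectors and regulators were in the table and 57 entered the tests. limma passed 0 of them in bitten against naive skin (smallest adjusted p = 0.113). Of the 57, 54 lay higher and 3 lower, and 16 were higher and 0 lower at an unadjusted p under 0.05, beside 64.6% of all genes above 0 and 11.2% higher and 4.58% lower at that p. Their median log2 difference was 0.37, against 0.10 over all tested genes. In saliva immune against first exposure skin 28 of the 57 lay higher and 29 lower, beside 54.4% of all genes higher. After 2 bites 41 of the 57 lay higher and 16 lower than in naive skin, beside 42.2% of all genes higher, and after 3 bites 50 lay higher and 7 lower, beside 60.5%.

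At the receptor, all 9 tested genes lay higher in bitten skin (median 0.47), beside the 64.6% of all genes. After 2 bites alone 5 lay higher and 4 lower (median 0.14), beside 42.2% of all genes higher. IL10RB, a receptor chain of type III interferon and interleukin 10, stood at 24.0 TPM on average in bitten and 13.99 TPM in naive skin (log2 difference 0.71, adjusted p = 0.13 by limma). The kinase TYK2 lay between 10.6 and 22.9 TPM in bitten and between 6.10 and 11.4 TPM in naive libraries (0.67, adjusted p = 0.225 by limma). IFNAR1 itself differed by 0.08, at 24.1 TPM against 22.5 TPM.

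All 10 tested sensors and adaptors lay higher, with a median of 0.37, beside 64.6% of all genes higher. After 2 bites alone 8 lay higher and 2 lower, beside 42.2% of all genes higher. TMEM173 (STING), the adaptor for cytosolic DNA sensing, differed by 0.58 (adjusted p = 0.237 by limma), the kinase IKBKE by 0.74 (0.279) and the endosomal RNA receptor TLR8 by 0.62 (0.374). TLR8 was scarce, at 0.128 to 0.895 TPM in naive libraries and 0.318 to 0.461 TPM in first exposure. It held 0.981 to 1.45 TPM in saliva immune skin and was highest in 2 bites replicate 1, at 5.99 TPM. The ISG15 pathway was represented by UBA7, its activating enzyme, at 6.48 against 3.62 TPM (log2 difference 0.67, adjusted p = 0.205), and UBE2L6, its conjugating enzyme, at 6.28 against 3.11 TPM (0.82, adjusted p = 0.184). With SOCS1, an inhibitor of cytokine signalling that differed by 0.58 (adjusted p = 0.25 by limma), they belong to a list in which 8 of 9 tested genes lay higher, beside 64.6% of all genes.

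Of the other antiviral effectors, 27 of 29 tested genes lay higher (median 0.29), beside 64.6% of all genes. After 2 bites alone 21 lay higher and 8 lower, beside 42.2% of all genes higher. TRIM25, the ubiquitin ligase that activates RIG-I, stood at 14.1 TPM in bitten and 6.87 TPM in naive skin, with no overlap in either experiment (0.90, adjusted p = 0.113 by limma). SHFL, which blocks ribosomal frameshifting, differed by 0.83 (adjusted p = 0.147), and NMI, an interferon-inducible adaptor, by 0.75 (adjusted p = 0.166). The relatives of OAS1 were scarce: OAS2 lay at 0 to 2.61 TPM in bitten and at 0.107 to 0.289 TPM in naive libraries, and OAS3 and OASL did not reach 1 TPM in 2 libraries, nor did HERC5, ZBP1 and DDX60.

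**Figure D4:**
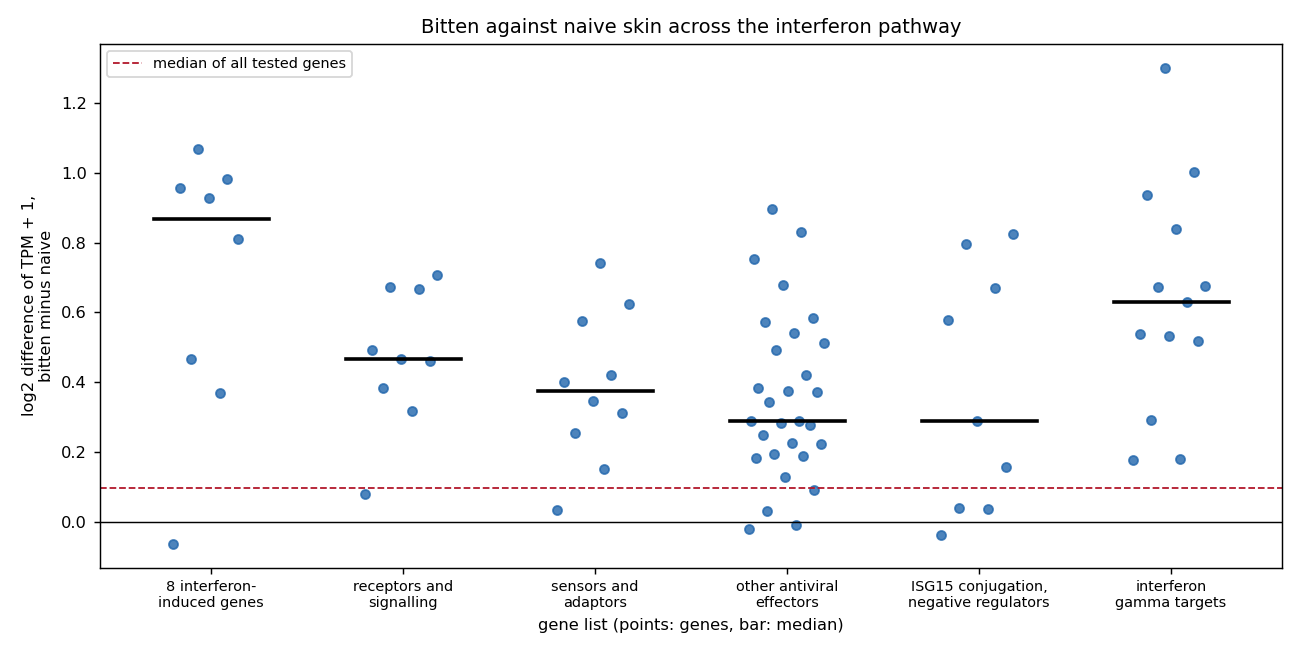
log2 difference of TPM + 1 between bitten and naive skin (vertical axis) for every tested gene of 6 lists (points) with the list median (black bar); the dashed line is the median of all tested genes, 0.10. Every list median lies above the dashed line, at 0.87 for the 8 genes and 0.29 for the other antiviral effectors.

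To find genes with a similar course, log2(TPM + 1) centred on its experiment was averaged over RSAD2, OAS1, ISG15 and CMPK2 and correlated with 11609 other symbol-bearing genes over the 13 libraries, which share their experiments and bite status. The 8 most alike were PLIN3, a lipid droplet protein (Pearson's r = 0.895, Spearman's rho = 0.819), TTC39C (r = 0.895, rho = 0.835), the kinase GRK6 (0.893, 0.846), Aox4, an aldehyde oxidase (0.887, 0.797), TMIGD1 (0.883, 0.769), TBC1D10C (0.879, 0.868), SAMD12 (0.879, 0.868) and NGEF (0.878, 0.797). Without naive replicates 2 and 3, the libraries farthest from the median, their r lay between 0.636 for NGEF and 0.761 for TBC1D10C. None of these is on a list of the interferon pathway. Of the 56 pathway genes ranked, 6 were among the 100 most alike (UBE2L6, PARP12, NMI, SHFL and TRIM25 among them), which is 10.7% of them, where the 100 make up 0.861% of all ranked genes. The averaged profile was lowest in naive replicates 1, 2 and 3 (-0.37, -0.84 and -0.96). A high rank therefore partly restates the difference between bitten and naive skin counted above and is no separate support for it. The r of these pathway genes without naive replicates 2 and 3 is not given here.

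Markers of other cells also varied between these libraries. The summed TPM of 13 monocyte and macrophage markers was 243 to 603 in bitten and 116 and 160 in naive libraries of CK1, without overlap. In EF19-5 it was 148 to 1106 in bitten libraries and 276 in the naive library. The sum of 10 T cell markers did not overlap in either experiment. It was 10.88 to 27.3 in bitten and 5.28 and 10.72 TPM in naive libraries of CK1, and 12.15 to 35.3 and 10.95 TPM in EF19-5. Of the neutrophil list, the sum was mostly S100A9, a calcium-binding protein that keratinocytes can also make. S100A9 stood at 171 to 2231 TPM in bitten and at 80.8 to 159 TPM in naive libraries, without overlap. The sum of 11 adipocyte genes was 5471 to 14899 TPM in bitten and 2094 and 3023 TPM in naive libraries of CK1, without overlap, and 1828 to 5050 and 4224 TPM in EF19-5. That of 7 fibroblast markers overlapped in CK1, at 1697 to 3590 TPM in bitten and 2170 and 3588 TPM in naive libraries. In EF19-5 it did not, at 3086 to 8521 TPM in bitten libraries and 12310 TPM in the naive library. Keratinocyte markers summed to 14426 to 27796 TPM in bitten and 9820 and 20526 TPM in naive libraries of CK1. In EF19-5 these were 34582 to 50778 and 25038 TPM, without overlap. The sum of 6 endothelial markers was 36.7 to 122 TPM in bitten and 38.1 to 80.3 TPM in naive libraries. CSF3R, the neutrophil growth factor receptor, was listed at 0 in all 3 naive libraries, as was MPO in all 13. In 3 bites replicate 2, the library highest in ISG15, OAS1 and IRF7, the macrophage sum was 148 TPM, the lowest of the 10 bitten libraries, and the T cell sum 15.8 TPM, while 6 keratinocyte markers summed to 45869 TPM. In 2 bites replicate 1, highest in RSAD2, the macrophage sum was 1106, the T cell sum 35.3 and the keratinocyte sum 50778 TPM, each the highest of all libraries. The T cell and keratinocyte sums were lowest in naive replicate 2, at 5.28 and 9820 TPM, and so was that of macrophages, at 116 TPM.

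Of plasmacytoid dendritic cells, 4 of 10 markers were measured (TCF4, BCL11A, PACSIN1 and RUNX2), with a sum of 37.4 to 91.8 TPM in bitten and 40.0 to 58.7 TPM in naive libraries. Most of that sum was TCF4, at 27.3 to 52.4 TPM in bitten and 22.9 to 35.7 TPM in naive libraries. The other listed markers, IL3RA, CLEC4C and LILRA4 among them, were not analysed here. The sum therefore cannot tell whether these cells were present or changed in number. The part of these cell types in the differences above was not tested. In CK1, skeletal muscle genes took 2.64% to 11.5% of TPM in bitten libraries and 10.6% and 18.4% in naive replicates 1 and 2. Only saliva immune replicate 2 (11.5%) lay above naive replicate 1, and no bitten library reached naive replicate 2. In EF19-5 skeletal muscle genes took 0.739% to 1.67% in bitten libraries and 2.63% in naive replicate 3, without overlap. With these genes left out and TPM rescaled, CMPK2 differed between bitten and naive skin by 1.03, against 1.07 in the full table. The other genes are not given here for that setting. Rescaling cannot remove other differences in tissue make-up between libraries, and the part of muscle content was not tested.

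**Figure D5:**
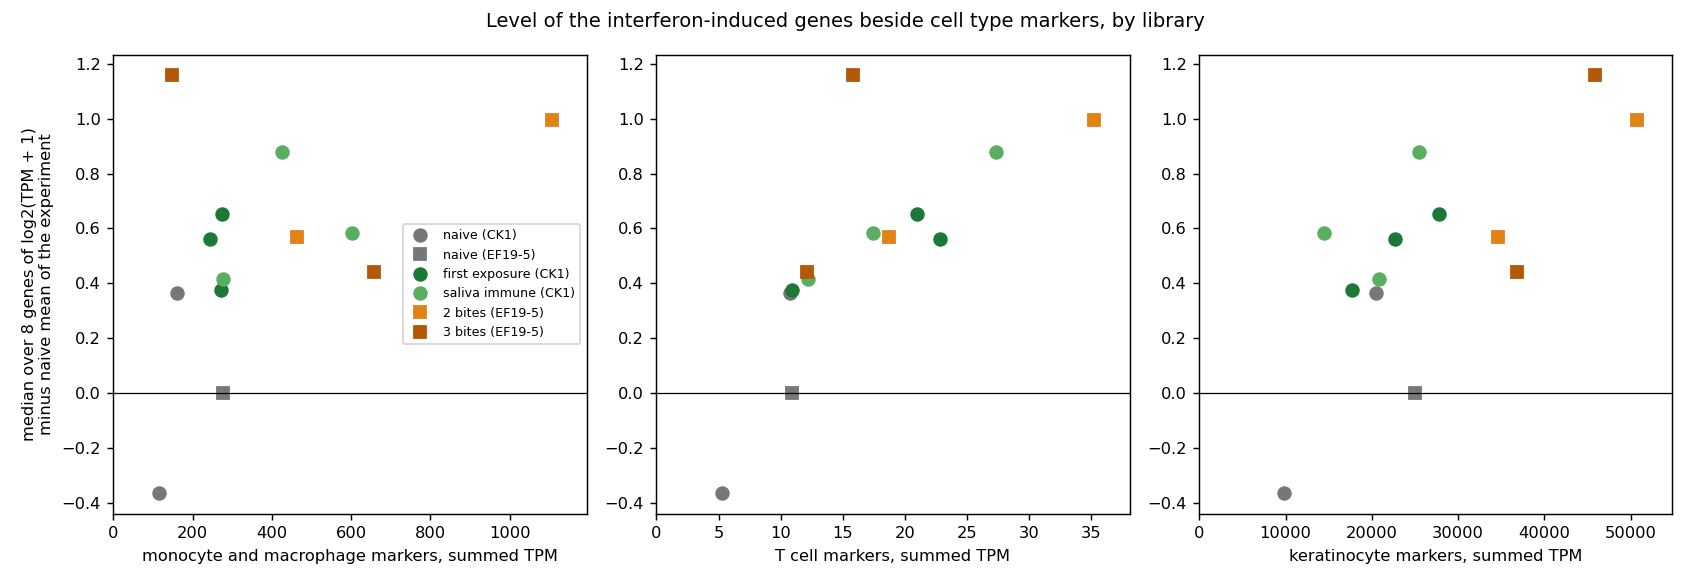
Median over the 8 genes of log2(TPM + 1) minus the naive mean of the same experiment (vertical axis) against the summed TPM of macrophage, T cell and keratinocyte markers (horizontal axes), 1 point per library, circles for CK1 and squares for EF19-5. The library with the highest median, 3 bites replicate 2 (1.16), has a macrophage sum of 148 TPM, and the next, 2 bites replicate 1 (0.99), has the highest sum on each axis.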

How the data were processed

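The authors deposited TPM values, 1 column per library. Total RNA was extracted with a Qiagen RNeasy kit, per the labels' protocols, and per the submitters' processing notes Trimmomatic and StringTie were used (versions not given). Aligner, build and annotation were not given in the sources used here, and no coordinates or sequences are printed. Genes reaching 1 TPM in 2 or more libraries entered limma 3.58.1 (R 4.3.3) as log2(TPM + 1) values, with an intensity trend, two-sided and Benjamini-Hochberg adjusted over 14979 genes, at an adjusted p under 0.05. Bitten against naive used a bite term with the experiment as a fixed term, and the other 7 comparisons used 1 model of group by experiment with a shared residual spread. The fits and the permutation were tested on simulated data. Genes and lists were chosen with earlier results of these data known. From each pathway list at most the 3 genes with the smallest p in bitten against naive skin were named, and IFNAR1, OAS2, OAS3, OASL, HERC5, ZBP1, DDX60, IFNG, PARP12 and S100A9 were named after their values were seen. One gene that this rule would name is not reported here. A total of 24 alternative settings were run: pseudocount, filters, scaling, weights, experiment term, single experiments and each library left out, with a pair left out chosen after seeing the data.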

Additional observations from a re-analysis of the deposited data

How the results depend on the processing

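No paired analysis was possible because the labels give the groups compared no shared replicate numbers. The number of the 8 genes that passed was 0 in every comparison and alternative except bitten against naive with array weights, where it was 1 (CMPK2). In the model of group by experiment, which does not hold bitten against naive, the array weights ran from 0.179 to 51.9, the latter for saliva immune replicate 1. With them 2174 of all tested genes passed in saliva immune against first exposure, against 0 in the reported fit. Bitten against naive had weights from its own model, which are not given here, and with those 92 genes passed, against 6. Over all alternatives the count of passing genes ranged from 1 to 92 in bitten against naive (6 in the reported fit), 1 to 19 in first exposure (5), 1 to 20 in saliva immune (1), 1 to 254 in 2 bites (2) and 1 to 30 in 3 bites against naive (1), 0 to 4 in 3 bites against 2 bites (0) and 0 to 24 in the difference of experiments (0). The 254 came without the experiment term. The median over the 8 genes in 3 bites against naive, 0.95, was 0.44 to 1.16 without single libraries and 0.44 without 3 bites replicate 2 and naive replicate 2. It moved by less than the spread between replicates (0.473) elsewhere. Against naive skin, quantile normalization gave medians of 0.39 (first exposure) and 0.26 (saliva immune). With a pseudocount of 0.1 RSAD2 differed by 1.44 in bitten skin. The median in 3 bites against 2 bites was 0.50 without 2 bites replicate 1 and 0.047 without replicate 2, and that of the difference of experiments (0.14) was -0.23 without naive replicate 1, 0.51 without naive replicate 2 and -0.08 without 3 bites replicate 2.

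Signs changed in differences that no fit had called. Without single libraries, bitten against naive ran from -0.17 to 0.0115 for DDX58. First exposure against naive ran from -0.29 to 0.0615 for DDX58 and -0.0605 to 0.71 for STAT2 (-0.0605 also without the pair). Saliva immune against naive ran from -0.0942 to 0.26 for DDX58, which was -0.0837 with median-of-ratios scaling, -0.11 with quantile normalization and without the experiment term, -0.0134 with muscle genes left out, -0.0636 with array weights and -0.0942 without the pair. Saliva immune against first exposure ran from -0.11 to 0.28 for ISG15, -0.20 to 0.17 for IFIH1, -0.0387 to 0.43 for IRF7, -0.15 to 0.25 for STAT2, -0.13 to 0.10 for RSAD2 and -0.25 to 0.0538 for OAS1. With array weights it was 0.0393 for OAS1, -0.53 for ISG15, -0.17 for IFIH1, -0.24 for IRF7 and -0.0576 for STAT2, with quantile normalization -0.0150 for ISG15 and -0.0743 for IFIH1, and with muscle genes left out 0.0055 for RSAD2. 2 bites against naive ran from -0.0472 to 0.18 for STAT2, and 3 bites against naive from -0.0180 to 0.21 for DDX58 (-0.0136 with median-of-ratios scaling, -0.0016 with quantile normalization, -0.0180 without the pair). 3 bites against 2 bites ran from -0.53 to 0.89 for ISG15, -0.56 to 0.65 for IRF7, -0.59 to 0.0445 for RSAD2 and -0.0708 to 1.24 for OAS1. It was -0.0031 for ISG15 and -0.12 for IRF7 with median-of-ratios scaling, -0.0162 and -0.17 with quantile normalization, and -0.53 and -0.56 without the pair. The difference of experiments ran from -0.24 to 0.46 for IRF7, -0.38 to 0.39 for STAT2 (-0.0012 with a pseudocount of 0.1), -0.21 to 0.57 for IFIH1 and -0.31 to 0.0452 for DDX58 (0.0112 with median-of-ratios scaling and 0.0578 with quantile normalization). The cause was not tested. Scaling by median of ratios shifted the median of all genes in bitten against naive from 0.10 to -0.0070. Depth is unknown, so the counting error of genes near 1 TPM, RSAD2 among them, cannot be given.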

Other observations

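The targets of interferon gamma, the type II interferon made by T and natural killer cells, lay higher beside the type I genes. The transcript of interferon gamma itself, IFNG, is on the same list but did not enter the tests. It was listed at 0 in 12 of the 13 libraries and at 0.159 TPM in 2 bites replicate 1. All 13 tested genes of that list were higher in bitten than in naive skin, with a median log2 difference of 0.63, beside 64.6% of all genes. None passed limma (0 of 13, smallest adjusted p = 0.145), and 6 were higher and 0 lower at an unadjusted p under 0.05, beside 11.2% and 4.58% of all genes. After 3 bites 9 lay higher and 4 lower than in naive skin, beside 60.5% of all genes higher. After 2 bites 12 lay higher and 1 lower, beside 42.2% of all genes higher. Libraries of 3 genes did not overlap in either experiment, beside 3.09% of all genes. PSMB8, an immunoproteasome subunit, lay between 28.4 and 65.4 TPM in bitten and between 11.2 and 27.3 TPM in naive libraries, being the first of these 3 (log2 difference 1.00). CIITA, the master regulator of MHC class II genes, stood at 4.46 against 2.01 TPM (0.84), and IRF1, a transcription factor induced by interferon gamma, at 25.1 against 12.1 TPM (0.94), the other members of the 3. The list was at a median of -0.06 between saliva immune and first exposure skin and at -0.08 between 3 bites and 2 bites skin. The part of interferon gamma in these differences was not tested.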
